A study of Arabidopsis thaliana with 12 samples.

Results

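The comparison described here is the interaction of genotype and salt in Arabidopsis thaliana seedlings: for each gene, the salt change in a transformant called SvGRP minus the salt change in the wild type. It used all 12 arrays of the series and every gene or unnamed probe that passed the filter on dim signals, 26794 in all, of which 20917 had a gene name. A positive interaction means that a gene's change under NaCl was more positive in SvGRP than in the wild type, and a negative one that it was more negative. Values are log2 of the array signal relative to the 75th percentile of the same array, so that 0 is that percentile and an interaction of 1 is a difference of 2-fold between the salt responses.

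The 4 groups, each of 3 one-colour arrays, were SvGRP at 150 mM NaCl, SvGRP at 0 mM NaCl, the wild type (WT, accession Col-0) at 150 mM NaCl and WT at 0 mM NaCl. The transgene of SvGRP comes from the halophyte grass Sporobolus virginicus and encodes an RNA-binding protein of the glycine-rich type. The promoter, the number of lines and the level of the transgene are not given in the sources used here. Whole plants were grown for 5 days, moved to the NaCl or control medium for 24 h and collected when 6 days old.

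Glycine-rich RNA-binding proteins bind messenger RNA and act on its splicing, stability and translation, and their Arabidopsis members are known for parts in cold and salt stress and in the circadian clock. In seedlings, NaCl acts both as an osmotic stress, which is read largely through abscisic acid (ABA), and through the toxicity of sodium. Genes with an interaction are those for which the genotype changed the response, which can be seen as a level that differs before salt, under salt or in both. In whole plants, fewer cells of a type and less RNA per cell cannot be told apart.

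The arrays lay on 3 slides of 4 arrays. WT at 0 mM and replicate 1 of WT at 150 mM shared slide 1. Slide 3 held SvGRP at 150 mM and replicate 3 of SvGRP at 0 mM. The 4 remaining arrays, from WT at 150 mM and SvGRP at 0 mM, made up slide 2, and on principal component 3 (7.49% of the variance) they had the 4 lowest scores. Without slide in the fit a shift of slide 2 enters the interaction with a weight of -1.33, and with slide in the fit the interaction is the SvGRP change within slide 3 minus the WT change within slide 1. That value rests on 1 array each of WT at 150 mM and SvGRP at 0 mM, and these have no replicate on their slide, so their spread is taken from the other arrays. Both fits are therefore given, and genes called in both lead the account. Median signal per array ran from 676 to 1013, and arrays of a group correlated with r from 0.990 to 0.997 across genes. Precision is limited by having 3 arrays per group. Nothing says that the replicates were grown separately, so each p-value reflects the spread among these 12 samples alone, and that spread may be technical.

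With slide in the fit, 138 genes or probes had an interaction at an adjusted p under 0.05 (limma, Benjamini-Hochberg over all 26794), which is 0.515% of those tested. The interaction was positive for 53 (0.198%) and negative for 85 (0.317%), and 12.7% of all genes had an unadjusted p under 0.05, against 27.9% without slide. Without slide 2402 were called (8.96%), 675 positive (2.52%) and 1727 negative (6.45%). Both fits called 100 in the same direction (0.373%), 43 positive (0.16%) and 57 negative (0.213%). Of the 138, 137 had the same sign without slide. For comparison, 54.1% of genes were called for salt in SvGRP and 45.7% for salt in WT with slide in the fit. In that fit a call for salt was common and a call for a difference in the salt response rare. The interaction there has a larger SE than either salt change, so these shares are not of equal precision.

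**Figure D1:**
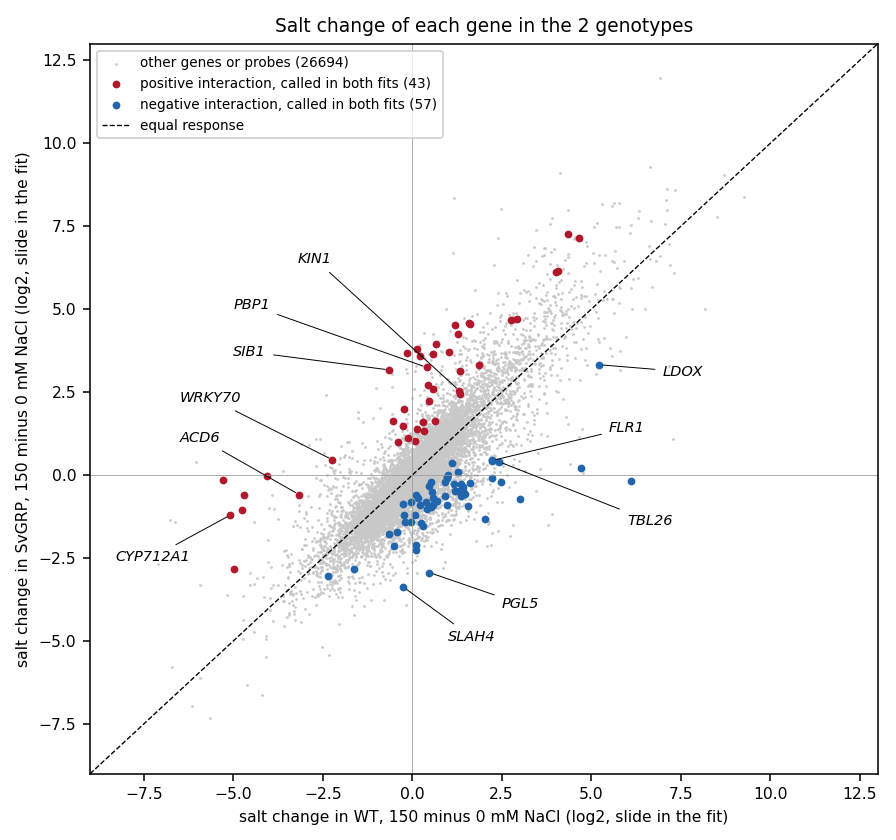
Salt change of each gene in SvGRP (vertical) against its salt change in WT (horizontal), both in log2 with slide in the fit; grey points are the genes or probes not called in both fits, and coloured points the 43 positive and 57 negative interactions called in both fits. Points above the dashed line of equal response have a positive interaction; CYP712A1, ACD6 and WRKY70 lie at the left, where WT fell under salt, and FLR1, TBL26 and LDOX at the right, where WT rose.

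Among genes called in both fits, the 2 directions differed in shape by the fitted values. Of the 43 positive genes called in both fits, 42 had a fitted level that was lower in SvGRP than in WT at 0 mM. At 150 mM 28 of the 43 were higher in SvGRP. For 37 the difference between genotypes was larger in size at 0 mM than at 150 mM. Salt raised 28 of the 43 in both genotypes by the fitted values, lowered 7 in both, and raised 8 in SvGRP while lowering them in WT. Of the 57 negative genes, 53 were lower in SvGRP at 150 mM and for 37 the difference between genotypes was larger at 150 mM. By the fitted values 38 of the 57 went down in SvGRP and up in WT, 11 went down in both and 8 went up in both. These counts are a description, because the same arrays chose the genes. Levels were above the dim threshold, the 20th percentile of the array, in all 4 groups for 22 of the 43 positive and 42 of the 57 negative genes, and with dim values raised to that percentile 24 of the 43 and 51 of the 57 were still called. The counts of direction include positive genes below the threshold at 0 mM in both genotypes. SNAP30 had mean levels there of -10.9 in SvGRP and -9.3 in WT, and AT1G73510 of -10.8 and -9.0. With dim values raised their interactions were 0.23 (adjusted p = 0.74) and -0.19 (adjusted p = 0.77). The shape of the positive set thus rests in part on levels too dim to be ordered. The counts were not repeated for the 22 genes alone.

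SIB1 (AT3G56710), a partner of the transcription factor WRKY33 in defence, lay at -1.58, -1.23 and -1.39 in SvGRP at 150 mM and at -4.61, -4.27 and -4.57 in SvGRP at 0 mM. In WT it lay at -1.2, -0.41 and -1.04 at 150 mM and at -0.26, -0.92 and -0.49 at 0 mM. The 3 SvGRP arrays at 0 mM were far below all 9 others, and WT levels overlapped between salt and control. The interaction of SIB1 was 3.82 ± 0.43 with an adjusted p of 0.019, and 3.41 (adjusted p = 0.0015) without slide. All values after ± are the SE from the fit with slide, made on 3 arrays per group. In that fit the interaction itself uses only 1 array each of WT at 150 mM and SvGRP at 0 mM.

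PBP1 (AT5G54490), a calcium-binding protein that interacts with the kinase PINOID, had the same form. Its levels were 0.96, 1.25 and 1.43 in SvGRP at 150 mM and -2.0, -1.73 and -2.04 in SvGRP at 0 mM, against 0.63, 1.32 and 0.88 in WT at 150 mM and 0.38, 0.09 and 0.21 in WT at 0 mM. At 150 mM the genotypes overlapped, and at 0 mM they were well apart. The interaction was 2.84 ± 0.32 (adjusted p = 0.019; 2.42 without slide).

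ERF104 (AT5G61600), an ethylene response factor and a substrate of the MAP kinase MPK6, lay at 0.27, 0.09 and 0.15 in SvGRP at 150 mM and at -1.78, -2.0 and -1.84 in SvGRP at 0 mM, against 0.93, 0.70 and 1.08 in WT at 150 mM and 1.24, 1.09 and 1.1 in WT at 0 mM. No SvGRP array reached a WT array at either NaCl level. Its interaction was 2.22 ± 0.22 (adjusted p = 0.017; 2.28 without slide). ACS6 (AT4G11280), an ACC synthase that makes the precursor of ethylene, rose under salt in both genotypes. Its levels were 0.77, 0.90 and 1.2 in SvGRP at 150 mM and -2.22, -2.0 and -2.19 in SvGRP at 0 mM, against 0.76, 0.91 and 0.86 in WT at 150 mM and -0.52, -0.52 and -0.71 in WT at 0 mM. The salt change was 3.14 in SvGRP and 1.34 in WT, an interaction of 1.8 ± 0.24 (adjusted p = 0.025; 1.67 without slide). The end levels under salt overlapped, and the difference lay in the starting levels. The list of ethylene synthesis and signalling genes as a whole did not share the direction of ACS6: over 21 genes its median was -0.09 with slide and -0.04 without, 8 values were positive and 13 negative with slide, ACS6 was the 1 call with slide, and without slide ERS1, CTR1 and ACO5 were called negative besides.

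MKK9 (AT1G73500), a MAP kinase kinase of ethylene and stress signalling, was also lowest in SvGRP at 0 mM. So were BAP1 (AT3G61190), a membrane protein that restrains defence and cell death, and MYB77 (AT3G50060), a MYB factor of auxin responses. The other groups were ordered differently. By means MKK9 was highest in WT at 0 mM (1.51), BAP1 in SvGRP at 150 mM (-1.44) and MYB77 in WT at 150 mM (2.73). MKK9 lay at 1.33, 1.28 and 1.47 in SvGRP at 150 mM and at 0.08, 0.10 and -0.03 in SvGRP at 0 mM, against 1.65, 1.38 and 1.36 in WT at 150 mM and 1.6, 1.46 and 1.49 in WT at 0 mM. The interaction of MKK9 was 1.25 (adjusted p = 0.019; 1.36 without slide), and those of BAP1 and MYB77 were 1.77 (adjusted p = 0.035) and 1.24 (adjusted p = 0.019). In each of these 3 genes all SvGRP arrays at 0 mM lay below all arrays of the other groups.

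Another group of positive genes was high in WT at 0 mM and fell there under salt. WRKY70 (AT3G56400), a transcription factor at the meeting point of salicylate and jasmonate signalling, lay at -0.98, -1.23 and -1.1 in SvGRP at 150 mM and at -1.53, -1.14 and -1.57 in SvGRP at 0 mM. In WT it lay at -0.04, -0.17 and -0.22 at 150 mM and at 2.19 on all 3 arrays at 0 mM. It was called for salt in both genotypes in opposite directions, with a change of 0.46 in SvGRP (adjusted p = 0.028) and -2.23 in WT (adjusted p = 0.00011), although the SvGRP arrays overlapped between salt and control. The interaction was 2.69 ± 0.21 (adjusted p = 0.0071) and 2.64 without slide.

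ACD6 (AT4G14400), an ankyrin-repeat membrane protein that promotes salicylate-dependent defence, lay at -3.35, -4.03 and -3.84 in SvGRP at 150 mM and at -3.21, -2.91 and -3.15 in SvGRP at 0 mM, against -3.15, -3.46 and -3.59 in WT at 150 mM and -0.28, 0.08 and 0.21 in WT at 0 mM. The WT arrays at 0 mM stood far above the 9 others. The interaction was 2.58 ± 0.39 (adjusted p = 0.04; 2.76 without slide), and another probe of the gene gave 3.67. CYP712A1 (AT2G42250), a cytochrome P450, lay at -6.07, -6.11 and -6.20 in SvGRP at 150 mM and at -4.26, -4.48 and -4.93 in SvGRP at 0 mM, against -6.08, -6.20 and -6.00 in WT at 150 mM and -1.51, -0.37 and -1.12 in WT at 0 mM. Salt lowered it to the same level in both genotypes, and its interaction was 3.88 ± 0.50 (adjusted p = 0.024; 3.52 without slide).

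A further 3 cytochrome P450 genes, chosen after their values were seen, were above the dim threshold in WT at 0 mM and in no other group. They were CYP93D1 (AT5G06900), its neighbour in the genome CYP712A2 (AT5G06905), and CYP76G1. CYP93D1 lay at -5.05, -3.71 and -4.74 in WT at 0 mM and at -9.79 or lower on the 9 other arrays. The fitted interactions of CYP93D1, CYP712A2 and CYP76G1 were 5.14, 4.09 and 4.02, all called in both fits. With dim values raised to the 20th percentile they were 3.19 (adjusted p = 0.063), 2.56 (adjusted p = 0.026) and 2.37 (adjusted p = 0.04), so the sizes depend on values that were too dim to be ordered.

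Cold and ABA-responsive genes were also found among the positive interactions. KIN1 (AT5G15960), which encodes a small hydrophilic protein induced by cold and ABA, lay at 5.92, 5.92 and 6.06 in SvGRP at 150 mM and at 3.77, 3.59 and 3.41 in SvGRP at 0 mM, against 5.97, 5.88 and 5.91 in WT at 150 mM and 4.56, 4.68 and 4.73 in WT at 0 mM. It rose in both genotypes to levels that overlapped. The interaction was 1.24 ± 0.15 (adjusted p = 0.019; 1.11 without slide). Its neighbour KIN2 (AT5G15970) had an interaction of 1.01 ± 0.10 (adjusted p = 0.019; 0.90 without slide). KIN1 and KIN2 are nearly identical, and whether each probe reads 1 of them alone was not tested.

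COR27 (AT5G42900), a cold-regulated and evening-phased repressor in the circadian clock, lay at -2.07, -1.77 and -1.66 in SvGRP at 150 mM and at -4.41, -4.33 and -4.44 in SvGRP at 0 mM, against 0.50, 0.55 and 0.38 in WT at 150 mM and -0.18, -0.06 and -0.01 in WT at 0 mM. The genotypes did not overlap at either level of NaCl, and the fitted difference was -4.25 at 0 mM and -2.23 at 150 mM. Its interaction was 2.02 ± 0.22 (adjusted p = 0.019; 2.0 without slide). CYP707A2 (AT2G29090), an ABA 8′-hydroxylase that breaks ABA down, rose by 1.03 under salt in SvGRP, against 0.07 in WT, an interaction of 0.96 ± 0.12 (adjusted p = 0.024; 0.75 without slide).

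**Figure D2:**
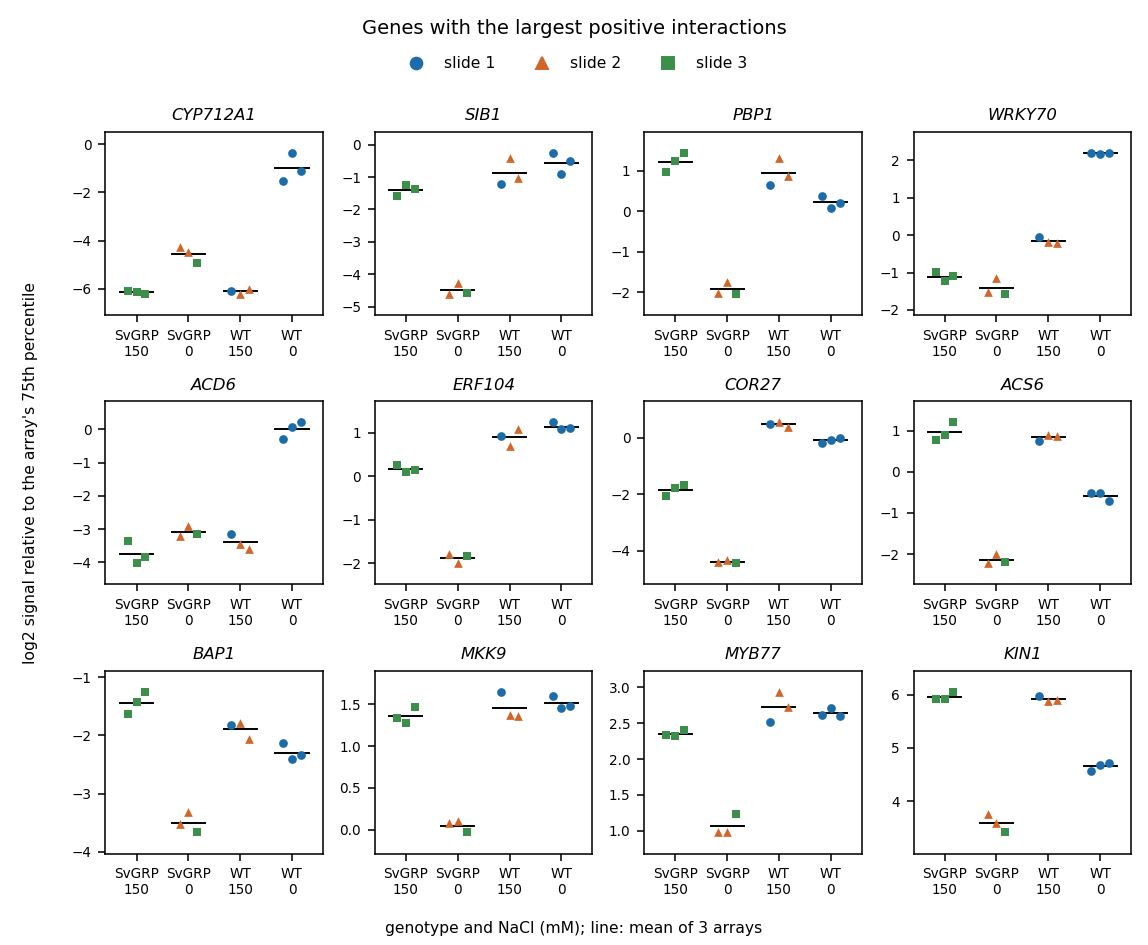
Level of the 12 genes with the largest positive interactions among genes with a symbol that both fits called and that were above the dim threshold in at least 3 groups, as log2 signal relative to the array's 75th percentile (vertical) in each array of the 4 groups (horizontal, NaCl in mM); marker shape and colour give the slide and lines the mean of 3 arrays. SIB1, PBP1, ERF104, ACS6, BAP1, MKK9, MYB77 and KIN1 are lowest in SvGRP at 0 mM, and WRKY70, ACD6 and CYP712A1 are highest in WT at 0 mM.

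Among the negative genes, one set rose under salt in WT and little or not at all in SvGRP. FLR1 (AT3G12145), a leucine-rich repeat protein, lay at 0.15, 0.36 and 0.33 in SvGRP at 150 mM and at -0.14, -0.13 and -0.16 in SvGRP at 0 mM, against 2.39, 1.79 and 1.91 in WT at 150 mM and 0.17, 0.16 and 0.16 in WT at 0 mM. WT at 150 mM stood above all other arrays. The interaction was -1.79 ± 0.13 (adjusted p = 0.0071; -1.45 without slide), and 2 other probes of the gene gave -1.81 and -1.83. TBL26 (AT4G01080), of a family that acetylates cell wall polymers, lay at -2.43, -2.79 and -2.68 in SvGRP at 150 mM, against -0.80, -1.35 and -1.58 in WT at 150 mM, and between -3.37 and -3.01 on all arrays at 0 mM. Its interaction was -2.01 ± 0.27 (adjusted p = 0.025; -1.49 without slide), but its 2 other probes gave -2.33 and 0.32 and so disagree.

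JAZ6 (AT1G72450), a repressor of jasmonate signalling, went opposite ways in the genotypes. Its levels were 0.16, 0.12 and 0.07 in SvGRP at 150 mM and 0.50, 0.70 and 0.60 in SvGRP at 0 mM, against 1.89, 1.25 and 1.12 in WT at 150 mM and 0.81, 0.50 and 0.74 in WT at 0 mM. No array overlapped between salt and control in either genotype. The fitted salt change was -0.48 in SvGRP and 1.21 in WT, an interaction of -1.69 ± 0.19 (adjusted p = 0.019; -1.22 without slide), and another probe gave -1.66. RIC10 (AT4G04900), which binds ROP GTPases, did likewise, with a salt change of -0.89 in SvGRP and 0.58 in WT and an interaction of -1.47 ± 0.21 (adjusted p = 0.034; -1.37 without slide).

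A further set fell under salt in SvGRP alone or more than in WT. PGL5 (AT5G24420), a 6-phosphogluconolactonase of the pentose phosphate pathway, lay at -3.71, -2.90 and -3.60 in SvGRP at 150 mM and at -0.83, -0.57 and -0.47 in SvGRP at 0 mM, against -0.67, -1.70 and -1.25 in WT at 150 mM and -1.42, -1.32 and -0.71 in WT at 0 mM. WT overlapped between salt and control. Its interaction was -3.42 ± 0.53 (adjusted p = 0.045; -2.72 without slide). SLAH4 (AT1G62262), a homologue of the guard-cell anion channel SLAC1, was below the dim threshold in SvGRP at 150 mM and lay between -7.39 and -5.72 on all other arrays. Its interaction was -3.13 ± 0.30 (adjusted p = 0.016; -2.24 without slide), and -1.85 (adjusted p = 0.028) with dim values raised to the 20th percentile.

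TIP1;1 (AT2G36830), an abundant aquaporin of the vacuole membrane, lay at 3.81, 3.91 and 4.05 in SvGRP at 150 mM and at 5.07, 5.06 and 5.13 in SvGRP at 0 mM, against 5.09, 4.91 and 4.96 in WT at 150 mM and 5.36, 5.30 and 5.30 in WT at 0 mM. All SvGRP arrays under salt lay below all 9 others, and WT was also somewhat lower under salt, without overlap. The interaction was -0.97 ± 0.13 (adjusted p = 0.027; -0.83 without slide), while 4 other probes of the gene ran from -1.38 to 3.54, so the value is that of 1 probe. MYB50 (AT1G57560), a MYB transcription factor, had an interaction of -1.43 ± 0.23 (adjusted p = 0.05 as rounded; -1.51 without slide) and lay at -5.11, -4.91 and -4.76 in SvGRP at 150 mM, against -3.35, -3.48 and -3.48 in WT at 150 mM. Another probe of MYB50 gave -0.89.

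XTH17 (AT1G65310), a xyloglucan endotransglucosylase of the cell wall, was higher in SvGRP than in WT at 0 mM. It lay at -2.21, -2.14 and -2.18 in SvGRP at 150 mM and at -0.48, -0.25 and -0.47 in SvGRP at 0 mM, against -1.33, -1.76 and -2.02 in WT at 150 mM and -0.92, -0.87 and -0.91 in WT at 0 mM. Under salt its SvGRP arrays were all lower than those of WT, but the fitted difference was -0.18 and was not called (limma with slide, adjusted p = 0.64). The interaction was -1.27 ± 0.17 (adjusted p = 0.026; -0.97 without slide). XTH13 (AT5G57540), of the same family, lay at -4.87 and -4.76 on the slide 2 arrays of SvGRP at 0 mM and at -6.17 on slide 3. Its interaction accordingly was -1.42 ± 0.17 (adjusted p = 0.019) with slide and -2.80 (adjusted p = 0.012) without. AGP6 (AT5G14380), an arabinogalactan protein of the cell wall, split in the same way between slides and had values of -0.97 (adjusted p = 0.019) and -1.67 (adjusted p = 0.0071). The list of expansins and xyloglucan endotransglucosylases had a median of -0.18 with slide and -0.43 without over 21 genes, with XTH17 and XTH33 called negative with slide, and XTH17 negative and XTH22 positive without.

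LDOX (AT4G22880), the leucoanthocyanidin dioxygenase of anthocyanin synthesis, rose strongly under salt in both genotypes but by less in SvGRP. Its levels were -2.28, -2.02 and -1.87 in SvGRP at 150 mM and -5.82, -5.92 and -5.39 in SvGRP at 0 mM, against -1.95, -1.76 and -1.84 in WT at 150 mM and -7.08, -7.47 and -6.99 in WT at 0 mM. The salt change was 3.33 in SvGRP and 5.23 in WT, an interaction of -1.90 ± 0.29 (adjusted p = 0.041; -1.68 without slide). At 0 mM all SvGRP arrays were above all WT arrays, and at 150 mM the genotypes overlapped.

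**Figure D3:**
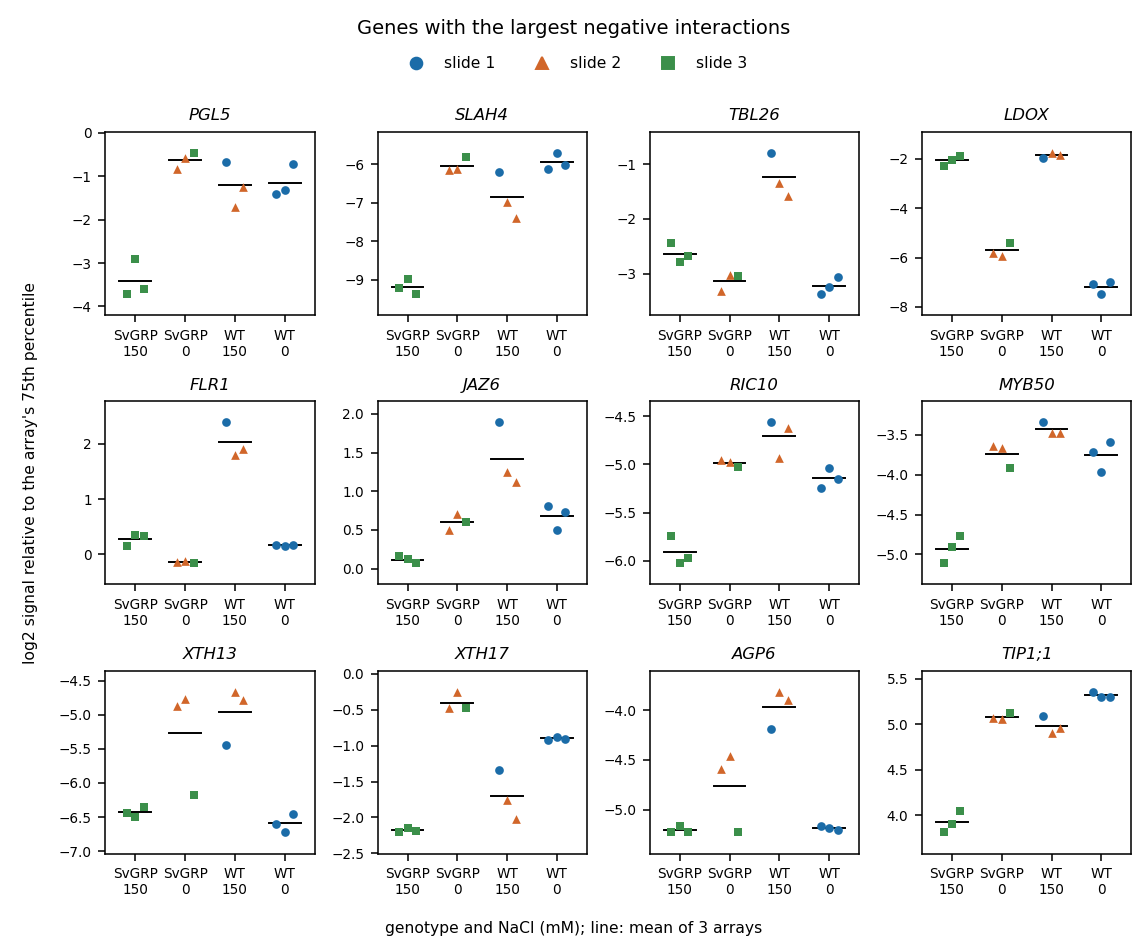
Level of the 12 genes with the largest negative interactions among genes with a symbol that both fits called and that were above the dim threshold in at least 3 groups, as log2 signal relative to the array's 75th percentile (vertical) in each array of the 4 groups (horizontal, NaCl in mM); marker shape and colour give the slide and lines the mean of 3 arrays. FLR1, TBL26 and JAZ6 are highest in WT at 150 mM, PGL5, SLAH4, RIC10, MYB50 and TIP1;1 are lowest in SvGRP at 150 mM, and XTH13 and AGP6 differ between slides within SvGRP at 0 mM.

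The neighbouring genes AT3G50120, AT3G50130 and AT3G50140, which have no symbol, all had negative interactions in both fits and were singled out after their values were seen. With slide the values were -1.82 (adjusted p = 0.024), -2.38 (adjusted p = 0.027) and -1.64 (adjusted p = 0.031). AT3G50120 lay at -4.64, -4.93 and -5.08 in SvGRP at 150 mM and at -3.50, -3.43 and -3.37 in SvGRP at 0 mM, against -2.66, -2.93 and -3.19 in WT at 150 mM and -2.95, -2.94 and -2.99 in WT at 0 mM. The gene with the smallest adjusted p of all, AT1G73325, had an interaction of -6.29 ± 0.24 (adjusted p = 0.00014; -4.42 without slide), and -5.07 (adjusted p = 7.5e-05) with dim values raised to the 20th percentile. It was above the dim threshold in WT at 150 mM only, at -2.92, -5.66 and -6.03, and replicate 1 stood apart from the other two.

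That array decided some calls. The genes with a symbol named by rule that were called with slide and not without it were GLR2.4, CYP94C1, XTH33, CHX4, ILL6, MYB111 and OPR3, all negative. CYP94C1 (AT2G27690), a cytochrome P450 that oxidises jasmonoyl-isoleucine and so turns the hormone over, lay at 0.61 on replicate 1 of WT at 150 mM and at -2.50 and -3.10 on replicates 2 and 3. In SvGRP it lay at -3.2, -3.02 and -2.55 at 150 mM and between -4.40 and -4.15 at 0 mM. Its interaction was -3.36 ± 0.40 (adjusted p = 0.019) with slide, -1.1 (adjusted p = 0.53) without slide, and 0.03 (adjusted p = 0.97) with slide 2 alone standing for WT at 150 mM and SvGRP at 0 mM.

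OPR3 (AT2G06050), an enzyme of jasmonate synthesis, lay at 3.2 on that array and at 2.34 on both others, with values of 1.56, 1.48 and 1.78 in SvGRP at 150 mM and 1.62, 1.55 and 1.64 in WT at 0 mM. Its interaction was -1.26 (adjusted p = 0.023) with slide and -0.67 (adjusted p = 0.15) without. GLR2.4 (AT4G31710), a glutamate receptor-like channel, CHX4 (AT3G44900), a cation/proton exchanger, XTH33 (AT1G10550) and ILL6 (AT1G44350), which releases hormones from amino acid conjugates, gave -3.77, -2.18, -3.33 and -1.59 with slide and -1.81, -0.58, -1.79 and -0.94 without. GLR2.4 and CHX4 were above the dim threshold in 2 groups. MYB111 (AT5G49330), a regulator of flavonol synthesis, gave -1.27 with slide (adjusted p = 0.04) and -0.73 without (adjusted p = 0.064).

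**Figure D4:**
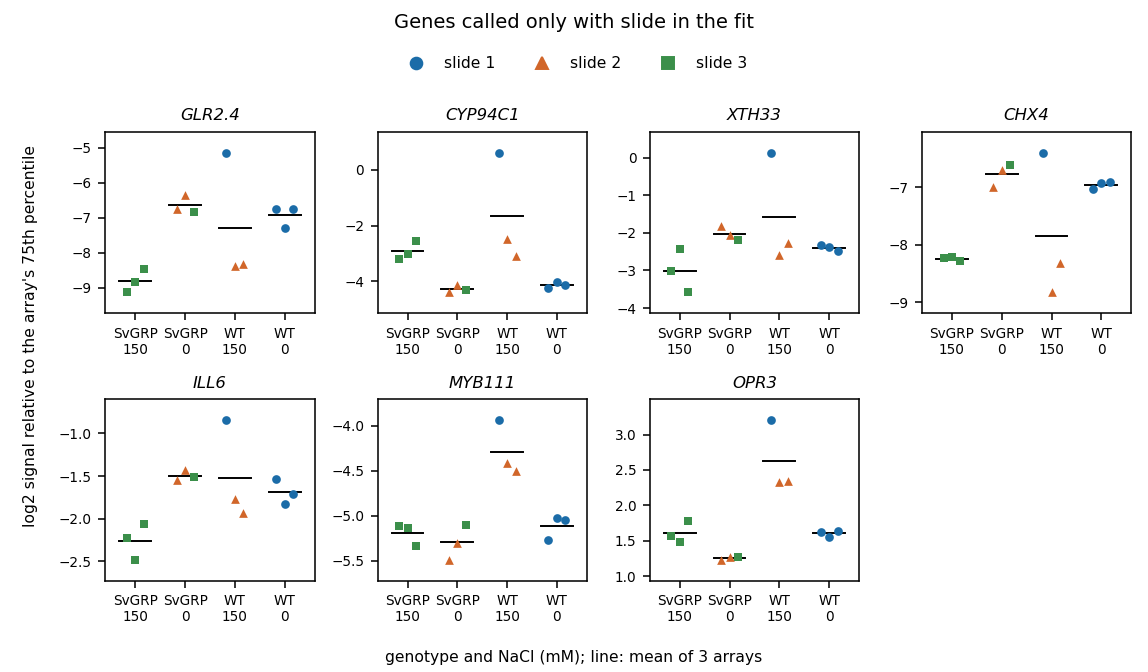
Level of the 7 named genes called with slide in the fit only, as log2 signal relative to the array's 75th percentile (vertical) in each array of the 4 groups (horizontal, NaCl in mM); marker shape and colour give the slide and lines the mean of 3 arrays. In each gene replicate 1 of WT at 150 mM, on slide 1, is above replicates 2 and 3, on slide 2.

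Across all genes, 67 were called for salt in both genotypes in opposite directions with slide in the fit, and 32 of them had a called interaction. The 6 named by rule were GLR2.4, WRKY70, CHX4, JAZ6, ILL6 and RIC10. Of these WRKY70, JAZ6 and RIC10 were called in both fits.

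The 38 gene lists held 700 entries, 612 of them measured, and were read beside the background of 0.515% of genes called with slide and 8.96% without, and a median interaction of -0.02 with slide and -0.04 without over all genes. No list had more than 2 members called with slide. Among 21 ABA and osmotic stress output genes the median was 0.96 with slide and 0.92 without. With slide all 21 values were positive, against 12653 of all 26794 tested, and KIN1 and KIN2 were called. Without slide 6 of the 21 were called positive, among them RD29A, COR15A and the lipid transfer protein gene LTP4. The lists of LEA proteins (median 0.91, 15 measured) and clade A phosphatases 2C (0.83, 9 measured) also had positive values throughout, with 0 calls with slide and 1 and 0 calls without. On principal component 1 (68.59% of the variance) replicates 1, 2 and 3 of SvGRP at 150 mM scored 71.0, 95.3 and 99.4. WT at 150 mM scored 64.7 to 68.1, so replicate 1 lay nearer to WT. The part of that spread in these medians was not tested.

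Heat shock factors and large chaperones had a median of 0.93 with slide and 0.66 without over 19 genes, with 0 calls with slide and 5 positive calls without. HSFA2, a heat stress transcription factor, lay at 0.73, 0.51 and 1.07 in SvGRP at 150 mM and at -5.37, -5.01 and -5.44 in SvGRP at 0 mM, against 0.11, 1.02 and 0.30 in WT at 150 mM and -4.28, -3.96 and -4.03 in WT at 0 mM. At 0 mM all SvGRP arrays were lower, and under salt the genotypes overlapped; the interaction was 2.01 (adjusted p = 0.12) with slide and 1.47 (adjusted p = 0.028) without. The list of ERF, CBF and DREB factors had a median of 1.03 over 22 genes, 1 call with slide, ERF104, and 6 positive calls without slide, ERF13, ERF105, ERF6, DREB2A and CBF2 besides. In the salicylate list WRKY70 was called with slide, and NIMIN1, PCC1 and WRKY54 joined it without slide, while the median over 25 genes was 0.13.

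Late anthocyanin genes had a median of -0.66 with slide and -0.76 without over 18 genes, with LDOX called with slide and 8 negative calls without, DFR and UF3GT among them. DFR, which makes leucoanthocyanidins, had an interaction of -2.04 (adjusted p = 0.066) with slide and -1.64 (adjusted p = 0.012) without. JAZ repressors had a median of -1.25 with slide and -0.51 without over 13 genes, with JAZ6 called with slide and JAZ3 and JAZ6 without. JAZ10 lay at 0.45 on replicate 1 of WT at 150 mM and at -1.54 and -1.22 on the others. For jasmonate synthesis and turnover the median was -0.39 with slide and -0.15 without over 17 genes, the 2 calls with slide were OPR3 and CYP94C1, both highest on that array, and there were 0 calls without slide. Jasmonate signalling and output genes had a median of -0.17 with slide and 0.36 without over 11 genes, with 0 calls with slide and 2 negative calls without. Early flavonoid genes had a median of 0.26 with slide and 0.25 without over 14 genes, 10 of them positive with slide, and 1 negative call with slide, MYB111.

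Aliphatic glucosinolate genes had a median of -0.56 with slide and -0.59 without over 20 genes, 0 calls with slide and 6 negative calls without. BCAT4, an aminotransferase at the start of methionine chain elongation, lay at -3.70, -3.13 and -2.6 in SvGRP at 150 mM and at -0.73, -0.92 and -1.02 in SvGRP at 0 mM, against 0.69, 0.23 and 0.42 in WT at 150 mM and 1.23, 0.97 and 0.86 in WT at 0 mM. It was lower in SvGRP at both NaCl levels and its interaction was -1.79 (adjusted p = 0.2) with slide and -1.68 (adjusted p = 0.02) without. Photosystem and antenna genes (median 0.17, 36 measured), Calvin cycle enzymes (0.0044, 16 measured) and ion transporters (-0.02, 23 measured) had 0 calls with slide and at most 1 without.

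**Figure D5:**
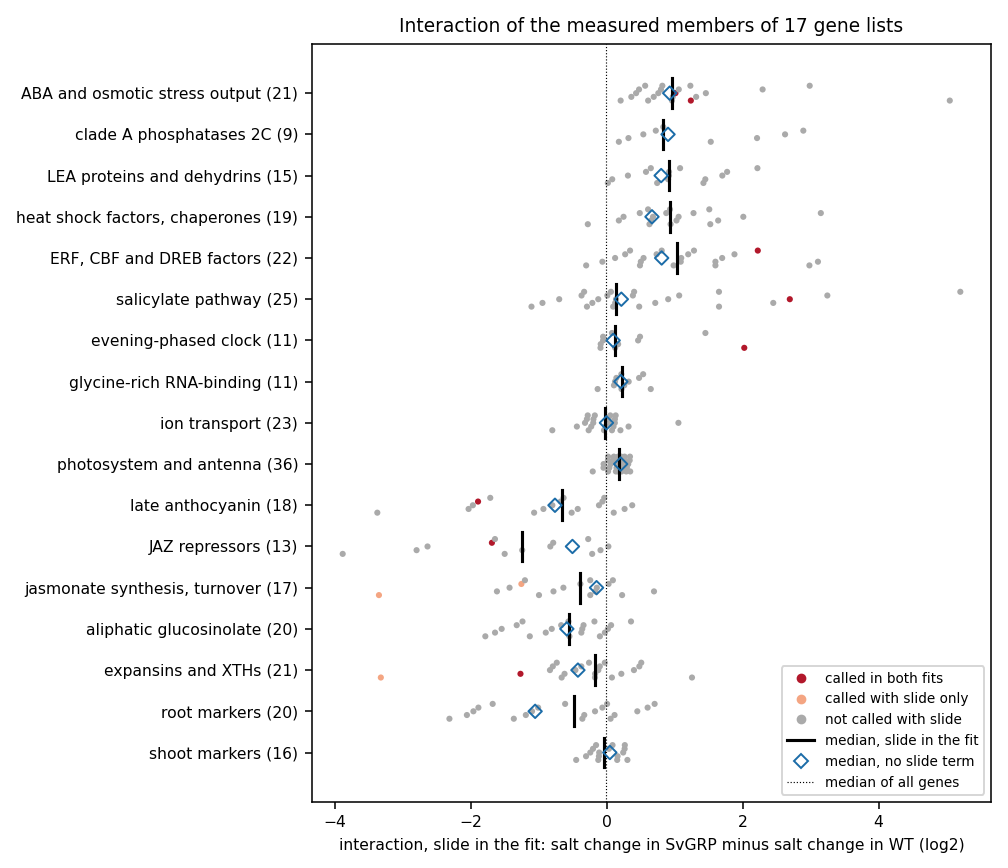
Interaction (log2, slide in the fit) of every measured member of 17 gene lists, with the number measured in parentheses; points show single genes coloured by call, black bars the list median with slide, open diamonds the list median without slide and the dotted line the median of all genes. The ABA output list has its median at 0.96, the JAZ list at -1.25 with slide and -0.51 without, and the root markers at -0.49 with slide and -1.06 without.

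Tissue markers were read beside these results. Of 24 markers of root tip, endodermis and root hairs 20 were measured. Their median interaction was -0.49 with slide and -1.06 without, with 0 calls with slide and 7 negative calls without. With slide 14 of the 20 values were negative and 6 positive, from -2.32 to 0.70. COBL9, a root-hair gene chosen after its values were seen, lay at -3.48, -4.61 and -3.03 in SvGRP at 150 mM and at -1.48, -1.1 and -1.84 in SvGRP at 0 mM, against -1.42, -1.01 and -1.23 in WT at 150 mM and -1.81, -2.29 and -1.52 in WT at 0 mM. The median level of the root markers on an array ran from -4.69 to -3.02 in SvGRP at 150 mM and from -3.60 to -2.06 in SvGRP at 0 mM, against -1.87 to -1.66 in WT at 150 mM and -3.13 to -2.31 in WT at 0 mM. Their summed signal, in units of the array's 75th percentile, ran from 48.2 to 56.3, 73.8 to 80.1, 55.1 to 58.0 and 78.4 to 83.9 in the same groups. That sum, set mostly by the brighter markers, was lower under salt in both genotypes, unlike COBL9, which was higher under salt in WT. The part of the root markers in the results for wall genes such as XTH13 and XTH17 was not tested.

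Shoot markers, 16 of 17 measured, had a median interaction of -0.04, and their median level ran from -2.43 to -2.34 in SvGRP at 150 mM and from -2.06 to -1.86 in SvGRP at 0 mM, against -2.31 to -2.21 in WT at 150 mM and -2.0 to -1.86 in WT at 0 mM. Of 10 seed markers 5 were measured, and the other 5, CRB and SESA1 to SESA4, did not pass the filter on dim signals. SESA5, a seed storage albumin, was above the dim threshold in SvGRP at 150 mM only, where it lay at -7.21, -6.71 and -6.88. Its interaction of 2.19 (adjusted p = 0.046) became 0.65 (adjusted p = 0.3) with dim values raised to the 20th percentile.

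The 13 genes that the naming rule always includes, markers of salt, ABA and the clock and both Arabidopsis GRP genes, had 0 called interactions with slide in the fit. RD29A (AT5G52310), an ABA and dehydration marker, lay at 3.97, 4.71 and 4.97 in SvGRP at 150 mM and at 1.85, 1.76 and 1.36 in SvGRP at 0 mM, against 4.11, 3.80 and 3.78 in WT at 150 mM and 2.15, 2.39 and 2.16 in WT at 0 mM. Salt raised it in both genotypes, the SvGRP and WT arrays overlapped under salt, and the interaction was 1.31 ± 0.45 (adjusted p = 0.29), or 1.22 (adjusted p = 0.049) without slide. RD29B gave 2.29 ± 1.1 (adjusted p = 0.45), with levels of -0.11, 1.61 and 2.04 in SvGRP at 150 mM, against -0.11, -0.38 and -1.57 in WT at 150 mM. NCED3, the key enzyme of ABA synthesis, gave 1.11 ± 0.57 (adjusted p = 0.48), and P5CS1, of proline synthesis, 0.55 ± 0.30 (adjusted p = 0.5). The dehydrin gene RAB18 (AT5G66400) rose by 2.86 in SvGRP and 2.84 in WT, an interaction of 0.01 ± 0.49, though 3 other probes gave 0.42 to 1.81.

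The sodium transporter genes SOS1 and HKT1 had interactions of 0.07 ± 0.12 and -0.28 ± 0.32. HKT1 fell by 3.17 under salt in SvGRP and by 2.89 in WT. The Arabidopsis glycine-rich RNA-binding genes GRP7 and GRP8 had interactions of 0.32 ± 0.17 and 0.21 ± 0.24, and GRP7 lay at 5.30, 5.31 and 5.44 in SvGRP at 150 mM and at 5.43, 5.47 and 5.30 in SvGRP at 0 mM, against 6.71, 6.66 and 6.64 in WT at 150 mM and 6.81, 7.12 and 7.01 in WT at 0 mM. The fitted difference between genotypes of GRP7 was -1.47 at 0 mM and -1.15 at 150 mM, and its 2 other probes had interactions of -0.14 and -0.08. The clock genes CCA1, LHY, TOC1 and ELF4 had interactions of 0.27, -0.14, -0.06 and 0.17. The fitted difference between genotypes of ELF4 was -2.3 at 0 mM and -2.14 at 150 mM. None of these 4 passed the threshold in either fit, which does not show that their responses are alike.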

How the data were processed

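RNA of whole seedlings was labelled with Cy3 and hybridised to 12 one-colour Agilent arrays, per the labels' protocols. Per the file headers, each deposited file gives 1 intensity per probe (the processed signal from the scanner software, version not stated in the labels), and mean, background and flag columns were not used here. A table deposited by the authors has log2 values that could be rebuilt to within 0.000389 by dividing each intensity by the 75th percentile of its array and centring every probe on its median. It served as an alternative, but centring a probe changes no difference between groups, so it tests only that the values were read alike. Of 43663 values per array 60 were controls. Names came from the platform's probe table and a RefSeq gene table (assembly TAIR10.1, names only), and 34344 of 43603 probes were listed with a gene.

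The analysis used this log2 intensity, scaled per array but not centred per probe. Probes stayed in if some group had all its arrays above their 20th percentile (35454 probes), and each gene was represented by its brightest probe on average. limma 3.58.1 in R 4.3.3 fitted group means with slide, read from the array barcodes, as a fixed term (6 residual and 1.90 prior degrees of freedom), and again without slide (8 and 1.74). Calls were made at an adjusted p under 0.05 (Benjamini-Hochberg, 26794 tests). The code was tested on simulated data.

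The members, lists, tests and naming rule were chosen with earlier results of these data known. The rule names the 12 largest interactions in each direction among genes with a symbol called in both fits and above the dim threshold in at least 3 groups, up to 3 called members of each list and direction, up to 6 genes called for salt in opposite directions, and always RD29A, RD29B, RAB18, NCED3, P5CS1, SOS1, HKT1, GRP7, GRP8, CCA1, LHY, TOC1 and ELF4. Other list members were named after their values were seen. Alternatives changed the slide term, replicate block, scaling, filter, probe choice, variance model and arrays. The transgene is not analysed here.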

Additional observations from a re-analysis of the deposited data

Results flagged for a closer look

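The salt response differed between SvGRP and WT, by the test of the difference itself (the interaction term of the limma fit that includes slide, at an adjusted p under 0.05), for 34 of the 47 genes named. Apart from the genes always included, the naming rule took only genes called in that fit, so this number follows from the rule. Of all 26794 genes or probes tested, 0.515% were called. The values are log2, SvGRP response minus WT response. Among positive genes, SIB1 (3.82), PBP1 (2.84), WRKY70 (2.69), ERF104 (2.22), COR27 (2.02), MKK9 (1.25), MYB77 (1.24), KIN1 (1.24) and KIN2 (1.01) were called in every one of the 22 fits that left out 1 array, 10 with slide and 12 without. The 10 with slide could not leave out replicate 1 of WT at 150 mM or replicate 3 of SvGRP at 0 mM, on which the value rests. Leaving out a slide 2 array changes only its SE. The 10 therefore cannot show whether a call depends on either of those single arrays. CYP712A1 (3.88), ACD6 (2.58), ACS6 (1.8), BAP1 (1.77) and CYP707A2 (0.96) were called in all 12 such fits without slide and in 2 to 6 of the 10 with slide. SESA5 (2.19) was above the dim threshold in SvGRP at 150 mM only, and with dim values raised its interaction was 0.65 (adjusted p = 0.3), so its call rests on values too dim to be ordered.

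Among negative genes, SLAH4 (-3.13), FLR1 (-1.79), XTH13 (-1.42) and AGP6 (-0.97) were called in all 22. JAZ6 (-1.69) was called in 10 with slide and 11 without. PGL5 (-3.42), TBL26 (-2.01), LDOX (-1.90), RIC10 (-1.47), MYB50 (-1.43), XTH17 (-1.27) and TIP1;1 (-0.97) were called in 2 to 8 of the 10 with slide and in 11 or 12 of the 12 without. GLR2.4 (-3.77), CYP94C1 (-3.36), XTH33 (-3.33), CHX4 (-2.18), ILL6 (-1.59), MYB111 (-1.27) and OPR3 (-1.26) were called in none of the 12 without slide, and replicate 1 of WT at 150 mM was the highest array of its group in each of the 7. With slide, where no fit left out that array, GLR2.4, CYP94C1, CHX4 and OPR3 were called in all 10. XTH33, ILL6 and MYB111 were called in 2 to 4 of the 10. The cause of the difference of replicate 1 from replicates 2 and 3 was not tested.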

How the results depend on the processing

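The count of called interactions was 138 with slide in the fit. It was 2402 without slide, 7384 with slide as a random block (correlation within slides -0.165), 10 with slides 1 and 3 only and 2443 with only slide 2 arrays standing for WT at 150 mM and SvGRP at 0 mM. A replicate block gave 52 calls with slide and 1215 without. Only 2 of 18 same-numbered pairs had deviations correlated above 0.1. These deviations were taken from group means without slide and so include slide shifts. They cannot decide whether the replicate numbers pair the samples. The count was 269 without a filter on dim probes, 71 for probes above the 20th percentile on all arrays, 88 with trended robust variance and 2845 with E1A spike-in scaling without slide. Leaving out each array gave 85 to 286 calls with slide (10 fits; 286, 85 and 215 without replicates 1, 2 and 3 of SvGRP at 150 mM, 85 without replicate 2 or 3 of WT at 150 mM and 88 without replicate 3 of WT at 0 mM) and 851 to 3655 without (12 fits). The 12 were 3655, 1472 and 2268 without replicates 1, 2 and 3 of SvGRP at 150 mM, 851, 996 and 1933 for SvGRP at 0 mM, 2959, 987 and 1800 for WT at 150 mM and 1646, 1376 and 1422 for WT at 0 mM; no value could be estimated with slide without replicate 1 of WT at 150 mM or replicate 3 of SvGRP at 0 mM. Calls numbered 131 with median scaling, 134 with quantile normalization, 138 with the authors' deposited table or E1A scaling, 165 over all probes and 183 with dim values raised. Rounding aside, the deposited table differs only by a constant per probe, so its calls were fixed in advance. Similar counts did not mean the same genes. Of the 138 calls with slide, 126 were called again in the same direction with median scaling, 98 with quantile normalization and 86 with E1A scaling. The number was 102 with dim values raised and 43 with the replicate block and slide. The share of positive calls, 38.4%, was 28.1% without slide, 48.1% and 25.7% with the replicate block with and without slide, 19.7% with dim values raised, 60% with slides 1 and 3, 15% with slide 2 arrays and 6.4% with E1A scaling without slide. E1A scaling moved the median of all genes to -0.133 with slide and -0.244 without. Signs turned only for genes near 0 or set by 1 array: the interaction of CYP94C1 was 0.026 with slide 2 arrays and 0.037 without replicate 1 of WT at 150 mM and without slide, the interaction of CHX4 was 0.057 with the random block and 0.23 and 0.15 in those settings, and the interaction of RAB18 was -0.10 with E1A scaling and -0.0575 without replicate 3 of WT at 0 mM and slide, with a range of -0.28 to 0.23 on leaving out arrays with slide. The interaction of SOS1 was -0.0421 and -0.0481 with E1A scaling, the interaction of HKT1 was 0.018 (random block), 0.041 (slide 2 arrays), and 0.041, 0.051 and 0.0045 on leaving out arrays without slide. The interaction of GRP8 was -0.016 (quantile), -0.13 (E1A, no slide), -0.0010 (slide 2 arrays) and -0.00271, -0.00798 and -0.056 on leaving out arrays without slide, the interaction of TOC1 was 0.00084 likewise and -0.17 to 0.024 with slide, and the interaction of ELF4 was -0.12 (E1A, no slide). The causes were not tested. Of all values for named genes, 1435 kept direction and side of the threshold, 311 lost and 11 gained the call, and 25 turned sign. The settings with slides 1 and 3 only, slide 2 arrays, dim values raised and E1A scaling without slide were chosen after seeing the data. Normexp correction was not run.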
